A study of Mus musculus with 6 samples.

Results

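Complex I (NADH:ubiquinone oxidoreductase) is the entry point of electrons from NADH into the respiratory chain, and 7 of its subunits are encoded by mitochondrial DNA. These genes, mt-Nd1, mt-Nd2, mt-Nd3, mt-Nd4l, mt-Nd4, mt-Nd5 and mt-Nd6, were taken from the deposited transcript table as every row whose gene name starts with mt-Nd. They are 7 of 15113 transcripts and 7 of the 13 protein-coding genes of the mitochondrial genome, and all 7 passed the filter on low values. The RNA came from C17.2, a mouse neural stem line (strain label CD1 x C57BL/6) that is established in culture, grown in 3 ways. Control cells were in serum-containing DMEM/F12 medium, another group received heme (dose, time and medium not given in the sources used here), and the last was kept in a neural induction medium with N2 supplement and the neurotrophin BDNF at 10 ng/ml (time not given). The labels name 2 biological replicates per group and do not say whether these were separate cultures, so the tests measure the spread between these libraries only. All groups are 1 cell line, and in such bulk samples fewer mitochondrial genomes per cell and less RNA per genome cannot be told apart.

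The 7 proteins form the core of the membrane arm of complex I, which couples electron transfer to proton pumping. mt-Nd1 lies at the junction with the peripheral arm next to the quinone site, mt-Nd3, mt-Nd6 and mt-Nd4l lie beside it, and mt-Nd2, mt-Nd4 and mt-Nd5 are related to bacterial antiporters and hold proton channels. Mitochondrial DNA is transcribed from both strands into long precursors that are cut mostly at the tRNAs between the genes. Of the 7 genes, 6 are read from the heavy-strand promoter, and mt-Nd6 is the only protein-coding gene of mitochondrial DNA read from the light-strand promoter.

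Before any comparison, the 2 heme columns were set side by side. The heme replicate 2 column was the replicate 1 column multiplied by a factor between 1.25 and 1.5 in each of 13963 transcripts, and no transcript was at 0 in only 1 of them. In the control pair 1257 transcripts were at 0 in only 1 library. Heme was therefore counted as 1 library (n = 1), and its replicate 1 column was used. The 5 libraries rested on 4.14 to 4.56 gigabases of mapped sequence, of which the 7 genes took 0.875% to 1.16%, with a mean coverage per base from 2846 to 19926. FPKM gives no read count, so no counting interval is given. The neural progenitor markers Nes, Sox2 and Vim, 3 of the 6 on that list, were listed, summing to 771 to 898 FPKM. Tubb3 and Map2, 2 of the 6 neuron markers, summed to 21.8 to 32.6 FPKM. Of the other lists, 0 of 4 astrocyte, 0 of 6 erythroid, 0 of 4 microglia and 0 of 3 endothelial markers matched a row used here, so their levels were not analysed here. Control 2, the library with the most RNA of the 7 genes, had the lowest Vim (663 FPKM against 782 to 798 in the other libraries) and the lowest Sox2 (13.6 against 18.6 to 19.8). It had the highest Nes (93.9 FPKM against 75.2 to 83.4). Whether these differences have a part in the results was not tested.

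On the mitochondrial genome (MT, GRCm38) each gene is 1 uninterrupted exon, and start, end and strand in the table were those of GENCODE M21. On the plus strand, mt-Nd1 (ENSMUST00000082392) lies at MT:2751-3707, mt-Nd2 (ENSMUST00000082396) at MT:3914-4951 and mt-Nd3 (ENSMUST00000082411) at MT:9459-9806. They are followed on that strand by mt-Nd4l (ENSMUST00000084013) at MT:9877-10173, mt-Nd4 (ENSMUST00000082414) at MT:10167-11544 and mt-Nd5 (ENSMUST00000082418) at MT:11742-13565. On the minus strand, mt-Nd6 (ENSMUST00000082419) lies at MT:13552-14070. The lengths run from 297 bases (mt-Nd4l) to 1824 (mt-Nd5). mt-Nd1 and mt-Nd2 each overlap the tRNA gene that follows (mt-Ti and mt-Tw), which is not shown. Complex I genes overlap each other in 2 places, where reads belong to 2 genes. These places are shown here from the plus strand with 20 bases on either side and the shared bases in capitals. The first is the end of mt-Nd4l and the start of mt-Nd4 (7 shared bases, MT:10147-10193), and the second is the end of mt-Nd5 and, on the opposite strand, the end of mt-Nd6 (14 shared bases, MT:13532-13585).
mt-Nd4l/mt-Nd4: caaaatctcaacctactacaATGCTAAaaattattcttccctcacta
mt-Nd5/mt-Nd6: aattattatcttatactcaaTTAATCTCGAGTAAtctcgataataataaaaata
The strand difference is visible in the letters. The first 30 bases of mt-Nd5 (MT:11742-11771, plus strand) and of mt-Nd6 (MT:14041-14070, minus strand) follow, each with its first codon in capitals.
mt-Nd5: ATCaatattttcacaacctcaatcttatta
mt-Nd6: ATGaataattatatttttgttttaagttca
The coding strand of mt-Nd6 held 28.1% G and 5.97% C. The other 6 genes held 8.0% to 11.6% G and 22.1% to 29.97% C. The labels do not say whether the counting used strand, so reads of mt-Nd6 and reads from the other strand of the same bases cannot be told apart.

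Parts of 3 of the genes also exist on chromosome 1, as annotated pseudogenes on its minus strand. A search of GENCODE transcripts (at least 85% identity over at least 200 bases) found for mt-Nd4l the pseudogene Gm10222 (1:24612407-24612700), with 294 of 294 aligned bases identical. For the first 876 bases of mt-Nd4 it found Gm28439 (1:24611535-24612410), again identical, and for 345 bases of mt-Nd3 it found Gm28438 (1:24612775-24613119) at 99.7% identity. The mt-Nd3 pair differs by T3C, counted from the first base of mt-Nd3 with the mitochondrial base first. Their starts are given with that position in capitals (MT:9459-9488 for mt-Nd3).
mt-Nd3: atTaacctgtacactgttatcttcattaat
Gm28438: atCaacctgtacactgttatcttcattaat
The table listed these copies at nearly the same FPKM as the genes. In each of the 5 libraries mt-Nd4l stood at 0.997 to 0.999 times Gm10222, and mt-Nd3 at 0.982 to 0.985 times Gm28438. The longer mt-Nd4, of which 502 bases lie outside its copy, stood at 1.34 to 1.37 times Gm28439. How reads that fit both places were assigned is not given in the sources used here, so the levels of mt-Nd3, mt-Nd4l and mt-Nd4 are uncertain. mt-Nd1 had no match. The copy of the last 510 bases of mt-Nd2, Gm13339, has 96.7% identity and was listed at only 27.1 to 36.9 FPKM. Other matches of 87.0% to 95.2% identity were not analysed here. They cover parts of mt-Nd2 and mt-Nd5 and, at 93.6% identity, all 519 bases of mt-Nd6 (Gm11408).

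Levels ran from mt-Nd1, the highest, down to mt-Nd6, with mt-Nd1 at 5.04 to 5.68 times mt-Nd6 in the 5 libraries. FPKM is already scaled by transcript length, but not for how well the RNA of each gene entered the libraries, which was not tested. The order is thus that of deposited FPKM, and may differ from that of the RNA in the cells. mt-Nd1 was the most abundant, at 3640 and 4578 FPKM in the control libraries, 4547 in heme, and 3852 and 4323 after neural induction. It ranked 4 of all 15113 transcripts by its mean. mt-Nd2 was next, at 1870 and 2463 FPKM in control, 2354 in heme, and 1999 and 2349 after induction. For both genes control 1 was lowest and control 2 highest, so the other groups lay inside the control range.

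mt-Nd4 was at 930 and 1363 FPKM in control, 1274 in heme, and 1060 and 1281 after induction. mt-Nd4l, its partner on 1 bicistronic transcript, was at 676 and 960 FPKM in control, 937 in heme, and 761 and 928 after induction. mt-Nd5, the most distal pump subunit, was at 664 and 942 FPKM in control, 878 in heme, and 744 and 892 after induction. These 3 genes, like the other complex I genes here, had the same high libraries (control 2, heme, induction 2) and the same low ones (control 1, induction 1).

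mt-Nd3 was at 866 and 933 FPKM in control, 910 in heme, and 865 and 908 after induction. It was the steadiest of the 7, its highest library being 1.08 times its lowest, against 1.26 to 1.47 in the other 6. mt-Nd6 was the lowest on average, at 640 and 903 FPKM in control, 842 in heme, and 700 and 858 after induction. Control 2 was again highest and control 1 lowest for mt-Nd6, and the groups overlapped.

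**Figure D1:**
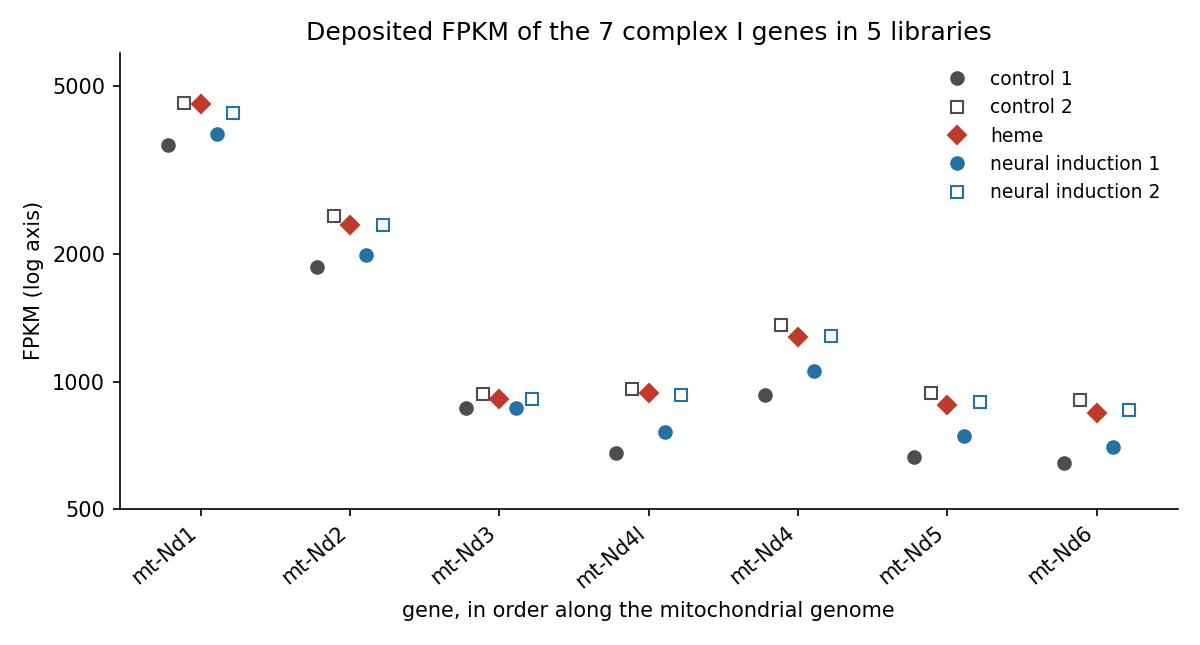
Deposited FPKM (log axis) of each gene in the 5 libraries, with 1 symbol per library and no averaging, genes in genome order. mt-Nd1 (3640 to 4578 FPKM) and mt-Nd2 (1870 to 2463 FPKM) stand apart from the other 5 genes. Among those 5, the ranges of neighbours in order of mean FPKM overlap.

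In order of mean FPKM the genes ran mt-Nd1 (4188), mt-Nd2 (2207), mt-Nd4 (1182), mt-Nd3 (896), mt-Nd4l (852), mt-Nd5 (824) and mt-Nd6 (789). mt-Nd1 was above mt-Nd2 by 1.84 to 1.95 times and mt-Nd2 above mt-Nd4 by 1.81 to 2.01 times, with no overlap between the libraries of neighbours. From mt-Nd4 down the ranges of neighbours overlapped. mt-Nd3 was above mt-Nd4l in 2 of 5 libraries, while mt-Nd4l was above mt-Nd5, and mt-Nd5 above mt-Nd6, in 5 of 5. This order depends on the chromosome 1 copies. The FPKM of each copy was then added to its gene, weighted by aligned bases over gene length. This was a choice made after seeing the data. With the copies added, mt-Nd3 (1800), mt-Nd4 (1737) and mt-Nd4l (1698) took the places after mt-Nd2, all above mt-Nd5 (824) and mt-Nd6 (789). mt-Nd4l then stood at 0.959 to 0.993 times mt-Nd4, with which it shares a transcript, against 0.705 to 0.736 times as deposited.

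Within a library the genes moved together. In log2 FPKM, control 2 exceeded control 1 by 0.33 for mt-Nd1, 0.40 for mt-Nd2, 0.11 for mt-Nd3, 0.51 for mt-Nd4l, 0.55 for mt-Nd4 and 0.50 for both mt-Nd5 and mt-Nd6. Neural induction 2 likewise exceeded neural induction 1 in all 7 genes, by 0.070 (mt-Nd3) to 0.29 (mt-Nd6). The 2 libraries of a group therefore differed in the same direction in every gene. Over all transcripts tested, 49.8% were higher in control 2 than in control 1. The control SD was 5.29% of the mean for mt-Nd3 and up to 26.7% for the others (n = 2).

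**Figure D2:**
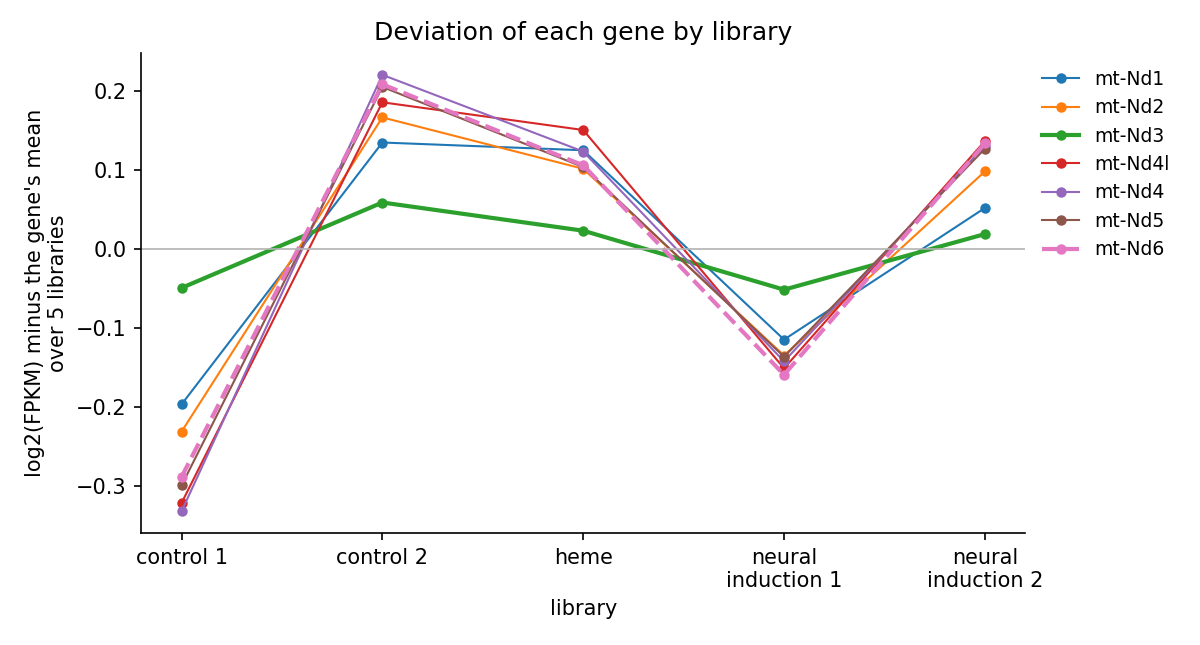
Deviation of log2 FPKM from each gene's mean over the 5 libraries, by library, with the points of a gene joined by a line. Control 1 and neural induction 1 lie below 0 and the other 3 libraries above 0 for all 7 genes, and mt-Nd3 (thick green line) stays closest to 0.

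Summed over the 7 genes, the level was 9286 and 12142 FPKM in control, 11743 in heme, and 9981 and 11539 after neural induction. These sums were 2.33% to 2.95% of all listed FPKM, and the heme and induction sums lay between the 2 controls. Among the protein-coding transcripts of mitochondrial DNA, the 7 genes held a steady share, from 32.9% (control 1) to 34.1% (neural induction 1). That share uses FPKM as deposited, with no chromosome 1 copies added, and copies of the other protein-coding genes were not searched.

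No gene of the 7 passed the test after heme. Changes were tested with limma on log2(FPKM + 1), with Benjamini-Hochberg adjustment over 13737 transcripts and a threshold of 0.05. The lone heme library was assumed to vary like the others. In that comparison 0.0728% of all transcripts (10 of 13737) were called, and 0 of 7 complex I genes. At an unadjusted p under 0.05 there were 680 transcripts and again 0 of the 7. Fitted log2 fold changes of heme against control were positive in 7 of 7 genes, with a median of 0.15 against 0.0021 over all transcripts. They ran from 0.018 for mt-Nd3 to 0.22 for mt-Nd4l, with limma adjusted p from 0.978 to 0.9996. The 95% interval of the fold was 0.771 to 1.61 for mt-Nd1, 0.842 to 1.22 for mt-Nd3 and 0.665 to 1.93 for mt-Nd4, so changes within these bounds cannot be told from none. Heme was above control 1 and below control 2 in all 7 genes. The median log2 fold change was -0.065 without control 1 and 0.39 without control 2. It was 0.36 when both heme columns were used, the replicate 2 values of the 7 genes being 1.27 to 1.46 times those of replicate 1.

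The authors' deposited table for heme reads differently. Its p-values, adjusted here by Benjamini-Hochberg over its 15113 transcripts, put 7.24% of all transcripts and 6 of the 7 genes below 0.05, with mt-Nd3 as the exception. In the authors' deposited table the log2 fold changes were 0.30 for mt-Nd1, 0.31 for mt-Nd2, 0.050 for mt-Nd3, 0.45 for mt-Nd4l, 0.43 for mt-Nd4, 0.38 for mt-Nd5 and 0.37 for mt-Nd6. Those values follow heme replicate 1 over control replicate 1, which gave 0.32, 0.33, 0.072, 0.47, 0.45, 0.40 and 0.39 in the same order. Over 10699 transcripts with at least 1 FPKM in both libraries, 97.05% of the authors' deposited values lay within 0.1 of that ratio of single libraries. Against control 2 the same heme library gave log2 ratios of -0.0098 (mt-Nd1) to -0.10 (mt-Nd6), below 0 in all 7 genes.

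After neural induction 0 of the 7 genes were called, with 0.00728% (1 of 13737) called over all transcripts. At an unadjusted p under 0.05 there were 684 transcripts and 0 of the 7. Fitted log2 fold changes ran from -0.021 (mt-Nd3) to 0.061 (mt-Nd4l), with a median of 0.027 against 0.019 over all transcripts, and the limma adjusted p was 0.9999 for each of the 7. mt-Nd1 was 4109 ± 663 FPKM in control and 4088 ± 333 after induction (SD, n = 2 each). mt-Nd6 was 772 ± 186 FPKM in control and 779 ± 111 after induction (SD, n = 2 each). Both induction libraries lay inside the control range for 6 of the 7 genes, and for mt-Nd3 induction 1 lay just below it. The 95% interval of the fold was 0.741 to 1.35 for mt-Nd1, 0.847 to 1.15 for mt-Nd3 and 0.671 to 1.60 for mt-Nd4. The median changed sign with the library left out, from -0.19 without control 1 to 0.27 without control 2, and from 0.17 without neural induction 1 to -0.086 without neural induction 2. In the authors' deposited table for neural induction, 7.2% of all transcripts and 0 of the 7 genes were below 0.05 after the same adjustment, with log2 fold changes of -0.022 to 0.17. Those values follow neural induction 1 over control 1. Over 10742 transcripts with at least 1 FPKM in both libraries, 97.23% lay within 0.1 of that ratio. Against control 2 the same induction library gave log2 ratios of -0.37 to -0.11, below 0 in all 7 genes. Both deposited comparisons thus share control 1, and both limma tests share the 2 control libraries.

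**Figure D3:**
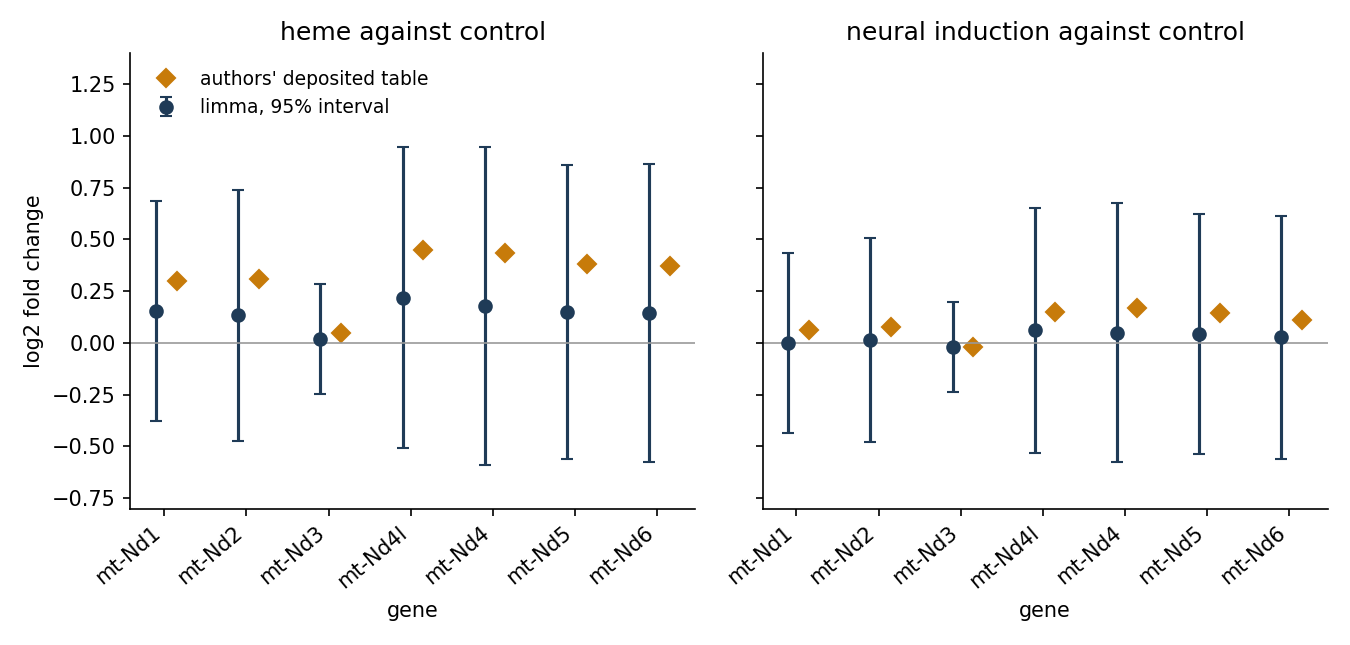
Log2 fold change of each gene for heme (left) and neural induction (right) against control. Circles with bars are limma estimates with 95% intervals, and diamonds are the authors' deposited values. Every interval includes 0, and the heme diamonds lie above the circles for all 7 genes.

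Between heme and neural induction, 0 of the 7 genes were called, with 0.0801% (11 of 13737) called over all transcripts. At an unadjusted p under 0.05 there were 682 transcripts and 0 of the 7. The fitted log2 differences were 0.039 (mt-Nd3) to 0.16 (mt-Nd4l), with a limma adjusted p of 1.0 for each. The heme library was above induction 1 in 7 genes and above induction 2 in 4 of 7.

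The balance between the strands was described by log2 FPKM of mt-Nd6 minus the mean log2 FPKM of the 6 heavy-strand genes. Whether the counting used strand is not given, so the FPKM of mt-Nd6 may include reads from the other strand. This balance may therefore not measure light-strand RNA alone. Whether RNA of mt-Nd6 entered the libraries as well as that of the other genes was not tested. It was -0.86 and -0.76 in control, -0.81 in heme, and -0.85 and -0.77 after neural induction. mt-Nd6 thus stood at 55.1% to 58.9% of the geometric mean of the others, highest in control 2 and lowest in control 1. The mean after induction was -0.81 ± 0.055 and in control -0.81 ± 0.068 (SD, n = 2 each), a difference of 0.0029. The two-sided exact permutation test gave p = 1.0, and 2 against 2 libraries cannot go below 0.333. The heme library differed from the control mean by 0.0032, with no test. Neither difference has a settled sign. Without control 1 the induction difference was -0.045 and without control 2 it was 0.051, without neural induction 1 it was 0.042 and without neural induction 2 it was -0.036. The heme difference was -0.045 without control 1 and 0.052 without control 2. With the chromosome 1 copies added mt-Nd6 fell to 41.0% to 43.9% of the others, and the difference after induction was 0.0027.

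Against its neighbour mt-Nd5, which it faces across the shared 14 bases, mt-Nd6 was at 0.964 and 0.959 times in control, 0.959 in heme, and 0.942 and 0.962 after induction. Neither of these genes has a near-identical copy in the table, and the unknown use of strand in the counting applies to this ratio too. Of the pairs of complex I genes, this one had the smallest spread over libraries, with an SD of 0.0132 in log2 ratio. Next came mt-Nd4 with mt-Nd5 (SD 0.0209) and mt-Nd4l with mt-Nd4 (SD 0.0233).

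**Figure D4:**
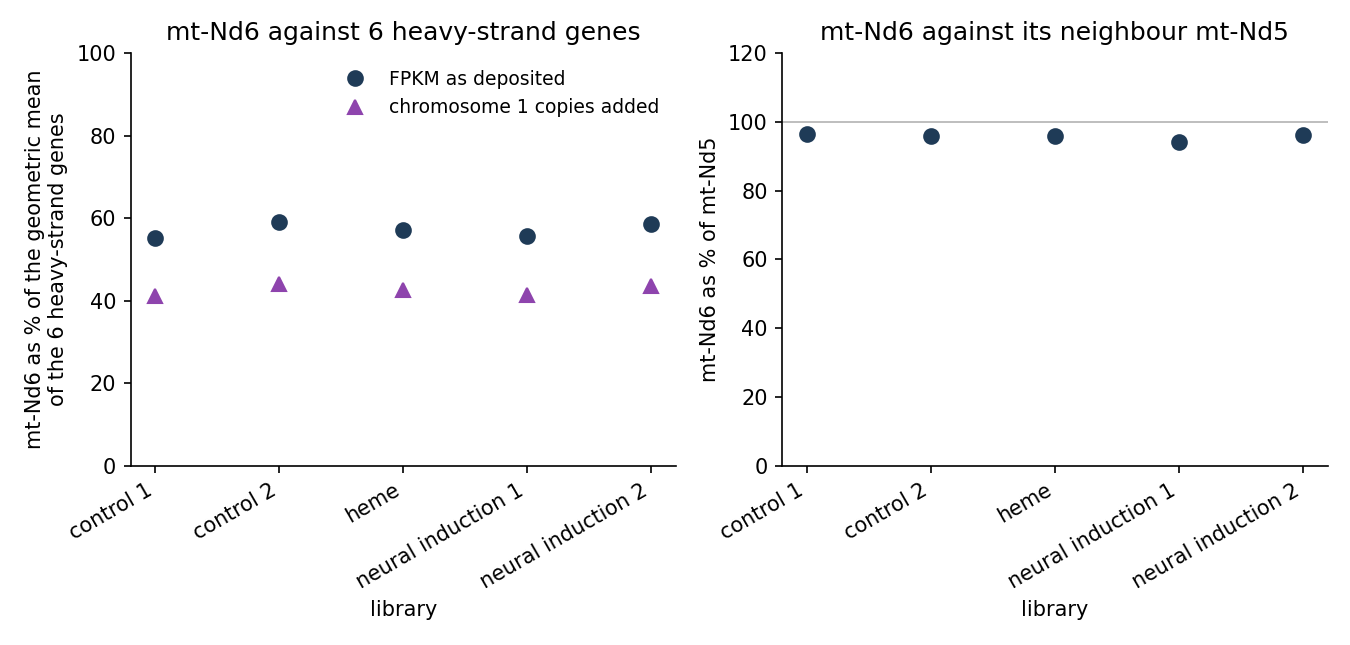
mt-Nd6 as a percent of the geometric mean of the 6 heavy-strand genes (left, as deposited and with copies added) and of mt-Nd5 (right), 1 point per library. The left values are 55.1% to 58.9% as deposited and 41.0% to 43.9% with copies; mt-Nd6 is below mt-Nd5 in all 5 libraries.

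How far the control libraries lay apart changed along the genome from 1 protein-coding gene to another. Over the protein-coding genes the log2 ratios of control 2 to control 1 were 0.33 to 0.54 from mt-Nd1 to mt-Co2, then 0.21 for mt-Atp8 and mt-Atp6, subunits of ATP synthase, 0.12 for mt-Co3, a cytochrome oxidase subunit, and 0.11 for mt-Nd3. They were 0.50 to 0.57 over the protein-coding genes from mt-Nd4l to mt-Cytb, the cytochrome b gene. The tRNA genes between them, at far lower FPKM, ranged more widely, for example -0.12 for mt-Tl2 before mt-Nd5 and 0.69 for mt-Te beside mt-Nd6. mt-Nd3 was thus low together with the 3 genes before it, and mt-Nd4l, which follows mt-Nd3 after 1 tRNA gene, was not. Between the induction libraries mt-Nd3 was again lowest (0.070), but mt-Atp8 and mt-Atp6 (0.27 and 0.30) were not low. Of the 3 complex I genes with a copy on chromosome 1, mt-Nd3 had the small control ratio and mt-Nd4l and mt-Nd4 did not. In the same stretch of chromosome 1, Gm28437 was listed at 2107 FPKM in control 1, near mt-Co3 (2104). Gm10925 was listed there at 4466 FPKM, near mt-Atp6 (4220), and Gm28661 at 2308 FPKM, near mt-Co2 (2324). The copy search covered only the complex I genes, so the levels of these other genes may be uncertain too. The part of read assignment in these ratios was not tested.

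**Figure D5:**
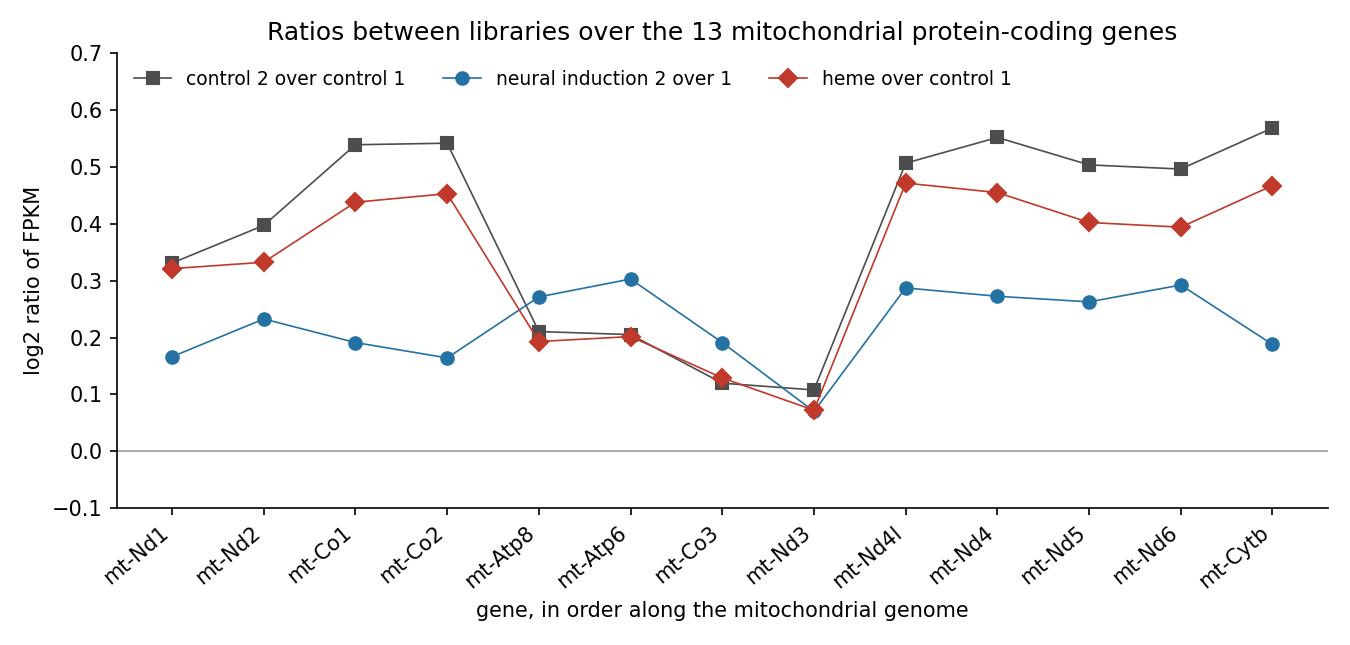
Log2 ratio of FPKM between libraries for the 13 protein-coding genes of mitochondrial DNA in genome order, 1 line per ratio. The heme and control lines share control 1 and so are not independent. mt-Nd3 has the lowest value on each line (0.11, 0.070 and 0.072).

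The rest of complex I is encoded in the nucleus. Of 37 nuclear subunit genes on the list, 33 were in the table, and 0 of their 62 tested transcripts were called after heme or after neural induction, with median log2 fold changes of -0.0094 and 0.055. Summed by gene, the highest nuclear subunit in any library was Ndufa12, at 162 FPKM, against 640 FPKM for the lowest value of the 7 mitochondrial genes. The summed level of the 7 genes was 5.19 to 7.10 times that of the 33 nuclear ones. From control 1 to control 2 the nuclear genes did not follow, with 12 of 33 higher in control 2 and a median log2 ratio of -0.027. By smallest p after heme, a transcript of Ndufab1, the acyl carrier protein of complex I, was at 21.6 and 19.0 FPKM in control and 2.39 in heme, with a limma adjusted p of 0.112. That is 1 transcript in 1 heme library, and the level of the whole Ndufab1 gene is not given here. The summed FPKM of the 33 nuclear genes was 1789 and 1710 in control and 1716 in heme. After neural induction 2 transcripts of Ndufv1, the subunit that binds NADH and FMN, came first. The first (ENSMUST00000042497) was at 26.2 and 25.9 FPKM in control and 5.36 and 3.89 after induction, and the other (ENSMUST00000128787) was listed at 0 in control and at 23.9 and 23.4 after induction, each with a limma adjusted p of 0.305.

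Of 18 complex I assembly factors 6 were in the table, and 0 of 9 transcripts were called in either comparison with control. A transcript of Ndufaf4 had the smallest p after heme, at 1.47 and 1.92 FPKM in control and 9.48 in heme (limma adjusted p = 0.894). Of 34 genes for transcription, processing and stability of mitochondrial RNA and DNA 20 were in the table, and 0 of 33 transcripts were called. The smallest p there after heme was that of a transcript of Ssbp1, the mitochondrial single-stranded DNA-binding protein, at 16.6 and 18.7 FPKM in control and 1.12 in heme (limma adjusted p = 0.106). After induction it was that of Mterf3, a regulator of mitochondrial transcription, at 2.03 and 2.30 FPKM in control and 7.07 and 6.50 after induction (limma adjusted p = 0.905). The Ndufaf4, Ssbp1 and Mterf3 values are each those of a single transcript, and levels of the whole genes are not given here. Of the other 24 mitochondrial DNA genes, 23 were tested and 0 called, with medians of 0.16 (heme) and 0.083 (induction).

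The profile of the 7 genes over the 5 libraries was set against 6050 named nuclear transcripts by the Euclidean distance of centred log2(FPKM + 1). Among the nearest were Gm10222 (0.0982), Srbd1 (0.107), Serf2 (0.107) and Gm28439 (0.107). Gm10222 and Gm28439 are the copies of mt-Nd4l and mt-Nd4. Srbd1 was at 9.40 and 13.5 FPKM in control, 11.9 in heme, and 9.83 and 11.7 after induction, high and low in the same libraries as the 7 genes. Among mitochondrial genes outside complex I, the proline tRNA mt-Tp (0.0729), mt-Co2 (0.106) and the leucine tRNA mt-Tl1 (0.117) were closest, and mt-Nd3 was the farthest of the 7 (0.263).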

How the data were processed

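The table deposited by the authors gives FPKM (a fragment count per length and depth) and mean coverage per base for each transcript and library, and 2 more give log2 fold changes, log2 mean abundance, likelihood ratio scores and p-values. The tools named in the submitters' processing notes are HISAT2, StringTie and edgeR, with no versions, and the build is GRCm38 (mm10). Per the labels' protocols, libraries were made with the TruSeq RNA kit. Depth was computed from the ratio of deposited coverage to FPKM. The fit used limma 3.58.1 in R 4.3.3 (two-sided, eBayes with trend) on log2(FPKM + 1), keeping transcripts that reached 1 FPKM in 2 or more of 5 libraries. It had 3 group means and 2 residual degrees of freedom. Its code was also run on simulated data with independent noise, which does not measure its power in these libraries. Sequences were read from the GENCODE M21 transcripts (GRCm38), and copies were searched among them with blastn 2.17.0. The 7 genes and the gene lists were chosen with earlier results of these data known. Genes of the lists were named by smallest p, up to 3 transcripts per list and comparison, of which the text gives the leading ones. The alternatives tried were another pseudocount, filter and scaling, both heme columns, a replicate block, no trend, each library left out and, chosen after seeing the data, the copies added. A marker and a nearest-profile transcript are not reported here.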

Additional observations from a re-analysis of the deposited data

How the results depend on the processing

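None of the 7 genes was called in any of the 3 comparisons under any of the 13 alternatives, the lowest limma adjusted p being 0.5105. Over all tested transcripts, the deviations of same-numbered control and neural induction libraries had a correlation of -0.0151. That single value cannot settle whether the libraries were paired, and all 7 genes were higher in replicate 2 in both groups. With the replicate block the median log2 fold change was 0.34 after heme and 0.027 after neural induction, with 0 called. Both heme columns gave a heme median of 0.36. With the copies on chromosome 1 added, the control mean of the summed FPKM was 3.20% of all listed FPKM, against 2.64% as deposited. With each library left out in turn, the heme median ranged from -0.065 to 0.39 and the induction median from -0.19 to 0.27, the ends coming from the 2 control libraries. By gene the heme log2 fold change then ranged from -0.0098 to 0.32 for mt-Nd1, -0.065 to 0.33 for mt-Nd2, -0.036 to 0.072 for mt-Nd3, -0.035 to 0.47 for mt-Nd4l, -0.097 to 0.45 for mt-Nd4, -0.10 to 0.40 for mt-Nd5 and -0.10 to 0.39 for mt-Nd6. The induction log2 fold change ranged from -0.17 to 0.165 for mt-Nd1, -0.18 to 0.21 for mt-Nd2, -0.075 to 0.033 for mt-Nd3, -0.19 to 0.31 for mt-Nd4l, -0.23 to 0.33 for mt-Nd4, -0.21 to 0.29 for mt-Nd5 and -0.22 to 0.27 for mt-Nd6. Rescaling turned the sign of the induction value for mt-Nd1 (0.012, to the total outside mitochondrial DNA) and mt-Nd2 (-0.0063, to the nuclear median), both near 0. The strand balance difference was 0.0006 to 0.037 above 0 for induction and heme under other summaries of the heavy-strand genes, except -0.0089 for heme without mt-Nd4l and mt-Nd3, and it changed sign with the library left out (-0.045 to 0.051 for induction, -0.045 to 0.052 for heme). Of 182 single-gene values, 159 kept their sign.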

Other observations

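The 3 tRNA genes between mt-Nd4 and mt-Nd5 had their highest FPKM in the heme library, a pattern picked out after the values were seen. It was not particular to them, since mt-Tm, mt-Ts1 and mt-Co3, which lie elsewhere, were also highest in heme. mt-Ts2, a serine tRNA, was at 2.96 FPKM in heme and 0.173 to 0.231 in the other 4 libraries. It did not pass the filter on low values and was not tested. mt-Tl2, a leucine tRNA directly before mt-Nd5, was at 31.4 FPKM in heme against 17.1 and 15.7 in control and 20.9 and 22.6 after neural induction (limma adjusted p = 0.510 for heme against control). mt-Th, a histidine tRNA directly after mt-Nd4, was at 6.26 FPKM in heme against 3.33 and 4.33 in control and 1.97 and 2.45 after induction. Heme is 1 library, so these levels have no replicate check.

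The minus-strand tRNA genes for alanine, asparagine, cysteine and tyrosine, a cluster after mt-Nd2, were each highest in neural induction 2. mt-Tn was at 69.0 FPKM there and at 40.2 to 52.5 in the other 4 libraries. mt-Nd6, annotated on the same strand, was highest in control 2. mt-Te, the minus-strand tRNA gene next to mt-Nd6, was also highest in control 2, at 183 FPKM against 113 in control 1. The highest library did not follow the strand. mt-Tw, a plus-strand tRNA gene before the cluster, was highest in neural induction 2, at 21.7 FPKM against 21.5 in control 2. On the minus strand, mt-Tq was highest in neural induction 2, mt-Ts1 in heme and mt-Tp in control 2.

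If the first 876 bases of mt-Nd4 were covered as its chromosome 1 copy is listed, the other 502 bases would average 1350 to 2008 FPKM, 1.93 to 2.02 times the copy in the same library. This is arithmetic on deposited values and not a measurement of those bases.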
